A study of Mus musculus with 12 samples.

Results

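The hair follicle stem cell genes Lgr5, Lgr6, Cd34, Sox9, Lhx2, Nfatc1, Foxc1 and Lrig1 were read by symbol from a table of back skin RNA-seq values, as named markers of the bulge and isthmus of the hair follicle. All 8 genes were present among the 18505 genes of the table, and all 8 were above 0 in every sample and passed the filter on low values that left 15288 genes to be tested. The values are FPKM, in which the fragments of a gene are divided by transcript length and by the size of the library. Wild-type BALB/c mice were used, and the study's methods describe males a few weeks old whose back hair was shaved before treatment. The 4 control samples came from skin coated with petroleum jelly. The 4 IMQ + NS samples came from skin given imiquimod (IMQ) cream, a Toll-like receptor agonist that produces psoriasis-like lesions, and then covered with a sodium chloride solution. The 4 IMQ + BZLF samples had the same cream followed by Banzhilian Formula (BZLF), a botanical preparation applied to the skin, at a dose that is not given for the sequenced mice. The study's methods describe gauze and a polyurethane film over the skin in both IMQ groups, and mention neither for controls. The cream and this dressing therefore cannot be told apart in the comparisons with control skin. All samples were taken on day 10. Lesions raised by IMQ cream over days are an acute model of psoriasis, and back skin was sequenced whole.

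The hair follicle cycles through growth (anagen), regression (catagen) and rest (telogen). Between cycles its stem cells lie in the bulge and the hair germ below it, while the isthmus above the bulge holds a further stem cell pool that feeds the upper follicle and the sebaceous gland. Lgr5 and Lgr6 are receptors for R-spondins, secreted proteins that strengthen Wnt signalling. Lgr5 is found in the lower bulge, the hair germ and, in anagen, the lower outer root sheath, and Lgr6 in the isthmus and the epidermis above it. Cd34, a surface sialomucin, marks bulge keratinocytes in mice but is also made by blood vessel endothelium and by many dermal fibroblasts. Sox9, Lhx2, Nfatc1 and Foxc1 encode transcription factors that specify bulge cells or hold them at rest, and Lrig1 encodes a membrane protein that restrains EGF receptor signalling and marks the isthmus.

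Coordinates are given on GRCm38, the assembly also called mm10, from the GENCODE annotation. Lgr5 spans chr10:115450311-115587780 on the minus strand, and Lgr6 chr1:134983301-135105276 on the minus strand. Cd34 spans chr1:194938819-194961279 on the plus strand, where the antisense gene Gm16897 shares exon bases with it. Sox9 lies at chr11:112782224-112787760, Lhx2 at chr2:38339281-38369733 and Foxc1 at chr13:31806633-31812476, each on the plus strand. Lrig1 spans chr6:94604529-94700158 on the minus strand and shares exon bases with Slc25a26 on the opposite strand. Whether reads were counted by strand is not given in the sources used here, so the values of Cd34 and Lrig1 may include reads of these neighbours.

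Promoters of 5 of the 8 genes were found in the set of RefSeq promoters used here (GRCm38.p6), which held no entry for Lgr5, Sox9 or Nfatc1. The 250 bases before the start are shown for Cd34, which was the gene called lower in both lesion groups, for Foxc1, which was called higher in both, and for Lgr6, whose direction was opposite to that of its relative Lgr5. Capitals mark each CpG.
Cd34, chr1:194938571-194938820, plus strand: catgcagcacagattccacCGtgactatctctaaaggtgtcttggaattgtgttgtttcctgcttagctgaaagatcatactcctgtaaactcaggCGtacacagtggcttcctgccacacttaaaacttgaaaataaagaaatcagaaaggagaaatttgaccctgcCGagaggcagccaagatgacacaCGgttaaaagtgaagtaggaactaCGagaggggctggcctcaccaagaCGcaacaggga
Foxc1, chr13:31806396-31806645, plus strand: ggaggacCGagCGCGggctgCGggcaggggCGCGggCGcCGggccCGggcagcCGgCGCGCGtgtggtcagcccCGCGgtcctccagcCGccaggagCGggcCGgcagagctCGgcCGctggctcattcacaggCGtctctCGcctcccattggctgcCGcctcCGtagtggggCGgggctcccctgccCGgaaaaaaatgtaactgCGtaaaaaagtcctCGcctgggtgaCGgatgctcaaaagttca
Lgr6, chr1:135105277-135105526, minus strand: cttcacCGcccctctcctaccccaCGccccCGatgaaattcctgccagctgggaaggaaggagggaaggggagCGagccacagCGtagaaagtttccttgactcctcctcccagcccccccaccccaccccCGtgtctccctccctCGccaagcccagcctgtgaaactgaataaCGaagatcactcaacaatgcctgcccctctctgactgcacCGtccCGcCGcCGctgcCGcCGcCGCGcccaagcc
The Cd34 window held 6 CpG and 46.4% G or C, where the median of all 32851 promoters in the table was 6 CpG and 52.4%. The Foxc1 window held 29 CpG and 70.8% G or C, and the Lgr6 window 16 CpG and 65.2%. The windows of Lhx2, which has 2 start sites, held 25 and 24 CpG, and that of Lrig1 held 26. Thus the Cd34 promoter was the only one of the 5 genes with no more CpG than the median. Letters of 4 motifs were searched on both strands: CTTTGA for TCF/LEF factors, found in 13.8% of all promoters, TAATTA for LIM homeodomain factors, found in 4.84%, CATTGT for SOX factors, found in 10.7%, and TATAAA for the TATA box, found in 12.4%. A single match lay in these windows, to CATTGT in the Lgr6 promoter, where the printed strand reads ACAATG. These matches are descriptions of letters only.

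The sum of FPKM over genes was 444660.3 to 506621.6 per library, and 16649 to 16941 genes were above 0. A single library stood apart from its group and bears on most results below. In control replicate 2 the summed FPKM of 21 hair shaft and inner root sheath genes was 2297, against 35.1 to 92.2 in the other 3 controls. Its 14 proliferation genes were all above those of the other 3 controls, as were its 8 hair matrix genes, while all 10 skeletal muscle genes were below. Among the stem cell genes, 5 of 8 were above the other 3 controls in this library and 1, Cd34, was below. The counts for the 8 genes against controls, and the values of some genes and lists, are therefore also given without it, with 4 lesion samples against 3. The labels do not tie each sample to a separate mouse, so p-values measure only the spread between these samples, which may be in part technical.

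The 3 groups were first set side by side by level. Cd34 had the highest level of the 8 genes in every group, with an FPKM of 309 ± 66.8 in control skin, 56.8 ± 8.58 after IMQ + NS and 97.7 ± 23.8 after IMQ + BZLF (mean ± SD, n = 4 here and below). In IMQ + NS skin the order by FPKM then ran Sox9, Foxc1, Lhx2 and Lrig1, each overlapping the next, followed by Lgr5, Nfatc1 and Lgr6, each clear of the next. In IMQ + BZLF skin the order by mean FPKM ran Foxc1, Sox9 and Lhx2, each overlapping the next, and Lrig1, Lgr5, Nfatc1 and Lgr6 followed without overlap. In control skin the values of Lhx2 and Lrig1 overlapped, and Nfatc1, Foxc1, Sox9, Lgr6 and Lgr5 each overlapped the next. The place of Lhx2 there rested on control replicate 2, at 25.3. In the other 3 controls Lhx2 was 3.23 to 5.37, below Lrig1 at 7.33 to 8.26. Lgr6 was thus last in both lesion groups, and Lgr5 last in the control group.

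**Figure D1:**
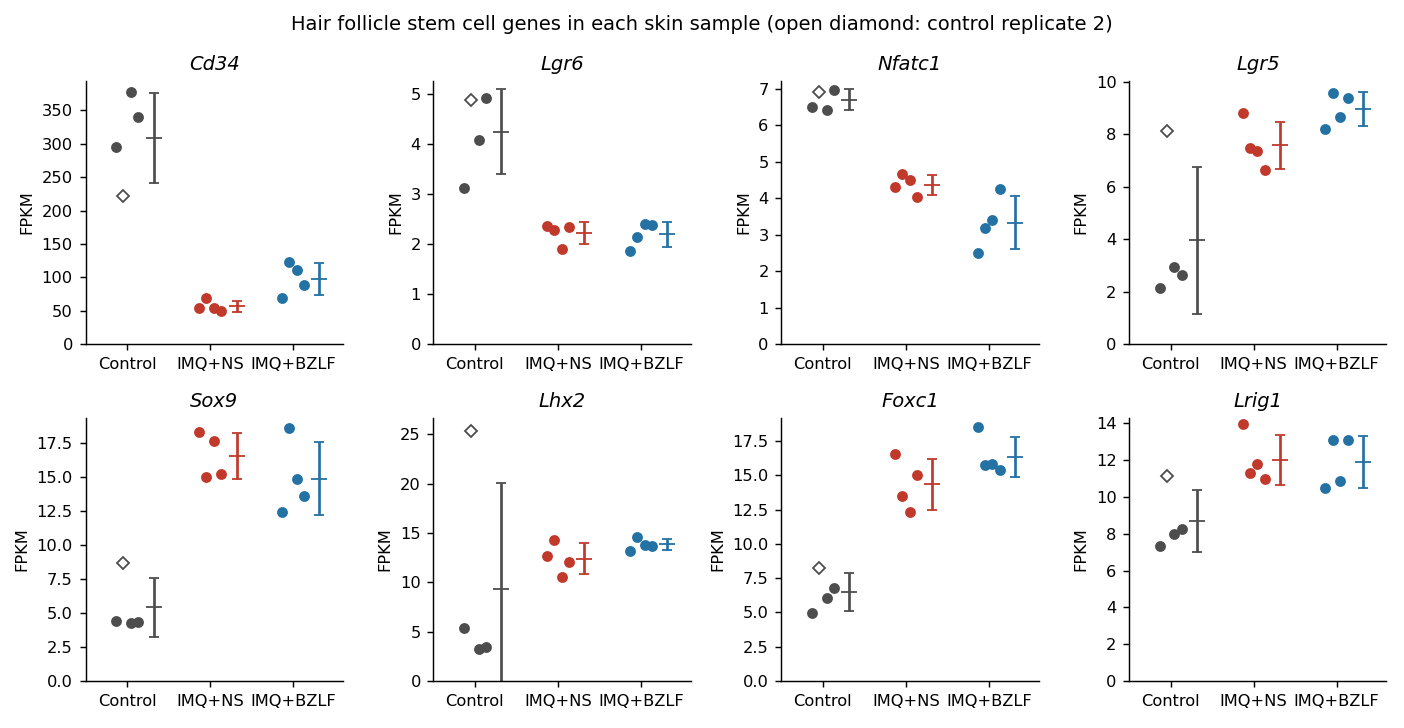
FPKM of the 8 hair follicle stem cell genes in each of the 12 samples, with a linear axis from 0 for each gene. Points are samples, the open diamond is control replicate 2, and bars are the mean and SD of 4 samples, with the lower end of the Lhx2 control bar below 0 and not drawn. Cd34, Lgr6 and Nfatc1 are highest in the controls, whereas Sox9 and Foxc1 are higher in all 8 lesion samples than in any control.

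The comparison of IMQ + NS with control skin addresses how these genes differed in the lesion. Lgr5, Sox9 and Foxc1 rose, Cd34 fell, and Lgr6 and Nfatc1 were lower by less than 2-fold. A gene was called when limma gave an adjusted p below 0.05 and the values differed by over 2-fold (a log2 fold change beyond 1 either way). By this rule 4 of the 8 genes were called, 3 higher and 1 lower, where 22.4% of all genes tested were called, 11.4% higher and 11.0% lower. The values of 5 of 8 genes did not overlap between these groups, as was the case for 49.4% of all genes. At an adjusted p below 0.05 with no limit on the fold there were 7 of 8, against 56.1% of all genes. The median log2 fold change of the 8 genes was 0.72, beside 0.05 for all genes. Without control replicate 2, Lhx2 was called as well, and the count was 4 higher and 1 lower, where 14.4% of all genes were then called higher and 12.2% lower.

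Lgr5 showed the influence of a single control most plainly among the receptors. Its FPKM was 2.12, 8.11, 2.93 and 2.64 in control replicates 1 to 4, and 8.80, 7.45, 7.37 and 6.64 in the IMQ + NS samples. Control replicate 2 lay among the lesion samples, and the other 3 controls lay below them all. The log2 fold change was 1.12 (SE 0.36, adjusted p = 0.0275 in limma), and the two-sided exact permutation test gave p = 0.114. Without control replicate 2 it was 1.53 (SE 0.13, adjusted p = 2.7e-05). Of the 8 fits that each left out 1 sample, 6 no longer passed the rule, all but those without control replicate 2 or IMQ + NS replicate 4, with values from 0.90 to 1.13, and over all alternatives the adjusted p ran from 2.7e-05 to 0.0756. It was also short of the 2-fold limit with a constant of 1 in the logarithm (0.93), equal sums (0.99) and quantile normalization (0.98). The rise therefore stood close to both limits with all controls and well past them without the 1 library.

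Lgr6 went the other way. Its FPKM was 3.12, 4.89, 4.09 and 4.93 in the controls, and 2.37, 2.29, 1.91 and 2.35 in the IMQ + NS samples. Every lesion sample was below every control. The log2 fold change was -0.88 (SE 0.16, adjusted p = 0.00191 in limma, exact p = 0.0286, the smallest that 4 against 4 samples can give), which was short of the 2-fold limit. It passed that limit without control replicate 1, at -1.02, when samples were rescaled to equal sums, at -1.01, and after quantile normalization, also at -1.01. Without control replicate 2 it was -0.81 (SE 0.16) and not called. The ratio of Lgr5 to Lgr6 FPKM was 0.898 ± 0.512 in control skin, 3.41 ± 0.472 after IMQ + NS and 4.10 ± 0.399 after IMQ + BZLF. The ratio was 1.66 in control replicate 2 and 0.681, 0.717 and 0.536 in the other 3 controls, and it was above 1 in each lesion sample.

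Cd34 showed the largest change of the 8 genes. Its FPKM was 295, 222, 377 and 340 in the controls and 54.6, 69.3, 53.6 and 49.7 in the IMQ + NS samples. The groups did not overlap, and replicate 2 was the lowest control. The mean was 5.44-fold lower, with a log2 fold change of -2.43 (SE 0.17, adjusted p = 1.2e-05 in limma). This call remained under each of the 21 alternatives tried, with values from -2.60 to -2.32. Because whole skin was sequenced, fewer cells of a type and less RNA per cell cannot be told apart, for Cd34 and for every gene below. Markers of both of the other cell types that carry Cd34 were also lower: 8 of 11 fibroblast genes were called lower, among them the collagen genes Col1a2 at -2.24 and Col1a1 at -2.10 and the matrix gene Dpt at -2.05, and their summed FPKM was 4028 to 5281 in IMQ + NS skin against 13879 to 19763 in control skin. Of 12 endothelial genes, 12 were below 0 in log2 fold change with 1 called, the tight junction gene Cldn5 at -1.62, and their sum was 137 to 165 against 188 to 261. Control replicate 2, the lowest control in Cd34, had the lowest control value of both sums. Of all genes tested, 11.0% were called lower in this comparison. No gene of either list was at 0 throughout a group. The part of these cells in the Cd34 value was not tested.

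Among the transcription factors, Sox9 and Foxc1 rose. Sox9, which is needed to form and keep the bulge, had an FPKM of 4.36, 8.66, 4.22 and 4.34 in the controls and 18.3, 14.97, 17.6 and 15.2 in the IMQ + NS samples. Control replicate 2 was about 2.01 times the mean of the other 3 and still below every lesion sample. Sox9 had a log2 fold change of 1.66 (SE 0.23, adjusted p = 3.9e-04 in limma), and 1.91 without that library. Foxc1, which helps bulge cells return to rest, had an FPKM of 4.99, 8.25, 6.02 and 6.77 in the controls and 16.6, 13.5, 12.3 and 15.1 in the IMQ + NS samples. The groups did not overlap, and the log2 fold change was 1.14 (SE 0.16, adjusted p = 4.7e-04 in limma). It was 1.26 without control replicate 2 and 0.98, under the limit, after quantile normalization.

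Lhx2, a LIM homeodomain factor of bulge and hair germ, depended on 1 control for its call. Its FPKM was 5.37, 25.3, 3.23 and 3.41 in the controls, and 12.6, 14.3, 10.6 and 12.04 in the IMQ + NS samples. Control replicate 2 had the highest Lhx2 of all 12 samples, at 6.33 times the mean of the other 3 controls, which were the 3 lowest samples. With all samples the log2 fold change of Lhx2 was 0.97 (SE 0.58, adjusted p = 0.182 in limma, exact p = 0.2) and was not called. Without that library it was 1.63 (SE 0.18, adjusted p = 9.9e-05) and was called, while over all alternatives the adjusted p ran from 9.9e-05 to 0.387. The same library differed in hair shaft, hair matrix and proliferation genes as given above, and their part in its Lhx2 level was not tested.

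Nfatc1, a calcineurin-dependent factor that keeps bulge cells quiescent, differed by less but with a narrow spread. Its FPKM was 6.50, 6.91, 6.41 and 6.98 in the controls and 4.30, 4.66, 4.49 and 4.02 in the IMQ + NS samples. The groups did not overlap, and replicate 2 lay within the other controls. Its log2 fold change was -0.61 (SE 0.09, adjusted p = 5.4e-04 in limma), short of the 2-fold limit. Lrig1 had an FPKM of 7.33, 11.2, 7.99 and 8.26 in the controls, and 14.0, 11.3, 11.8 and 10.98 in the IMQ + NS samples. Control replicate 2 reached the range of the lesion samples. Lrig1 had a log2 fold change of 0.48 (SE 0.14, adjusted p = 0.0198 in limma, exact permutation p = 0.0571) and 0.60 without that library, both short of the limit.

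**Figure D2:**
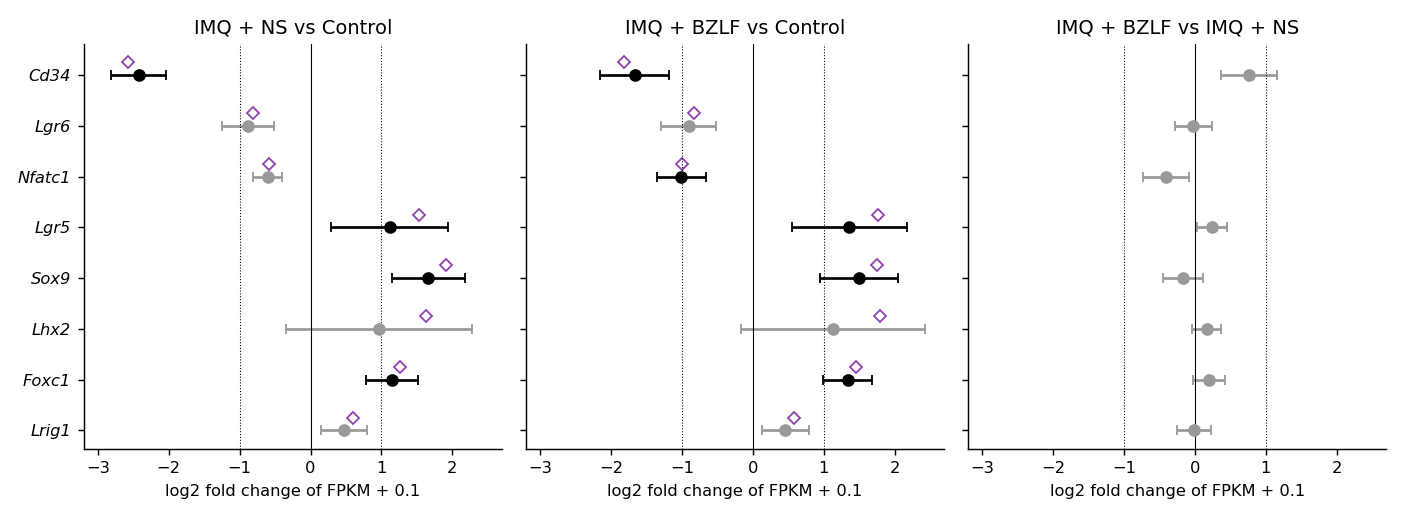
Log2 fold change of FPKM + 0.1 for the 8 genes in the 3 comparisons, with 95% confidence intervals from limma (n = 4 per group). Black points were called, grey points were not, dotted lines mark a 2-fold change, and open diamonds give the value without control replicate 2. Cd34 lies farthest from 0 in both comparisons with controls, where Lhx2 has the widest interval.

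Setting IMQ + BZLF samples against IMQ + NS samples addresses how they differed once the formula was applied to the lesion. None of the 8 genes was called by limma, where 2.52% of all genes tested were called, 0.321% higher and 2.20% lower. At an unadjusted p below 0.05 there were 3, Lgr5, Cd34 and Nfatc1, against 22.7% of all genes, and 1 gene, Cd34, had an adjusted p below 0.05, against 6.45% of all genes. The values of 0 of 8 genes were free of overlap, against 15.2% of all genes. The median log2 fold change was 0.08, beside -0.02 for all genes.

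Cd34 was the gene that differed most. Its FPKM was 68.7, 122, 111 and 88.7 in the IMQ + BZLF samples, all above the IMQ + NS samples except that the lowest fell just under IMQ + NS replicate 2 at 69.3. The mean was 1.72-fold higher, and the log2 fold change was 0.76 (95% interval 0.36 to 1.16, adjusted p = 0.0380 in limma, exact permutation p = 0.0571). The adjusted p ran from 0.00946 to 0.105 over the 21 alternatives, and the value from 0.64 to 0.92. The mean stayed below that of the controls by 3.16-fold. Beside it, 7 of 11 fibroblast genes were above 0 with none called by limma and a median log2 fold change of 0.23, and their sum was 4612 to 8601. Endothelial genes had a median of -0.20, with 2 of 12 above 0 and a sum of 105 to 165. Their part in the Cd34 difference was not tested.

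Nfatc1 and Lgr5 differed by less. Nfatc1 had an FPKM of 2.504, 3.17, 3.41 and 4.24 in the IMQ + BZLF samples, the highest of which overlapped the IMQ + NS range. The log2 fold change was -0.40 (95% interval -0.73 to -0.08, adjusted p = 0.135 in limma). Lgr5 had an FPKM of 8.18, 9.58, 8.66 and 9.38, of which the lowest was under IMQ + NS replicate 1 and above the other 3 IMQ + NS samples. Its log2 fold change was 0.24 (95% interval 0.03 to 0.46, adjusted p = 0.163).

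The other 5 genes had intervals that included 0. Sox9 had an FPKM of 12.4, 18.6, 14.9 and 13.6 in the IMQ + BZLF samples and a log2 fold change of -0.16 (95% interval -0.45 to 0.12). Foxc1 had an FPKM of 18.5, 15.7, 15.8 and 15.4, with replicate 1 apart from the rest, and a log2 fold change of 0.19 (interval -0.03 to 0.42). Lhx2 had an FPKM of 13.2, 14.6, 13.8 and 13.7 and a log2 fold change of 0.17 (interval -0.04 to 0.37). The values of these 3 transcription factors overlapped with and without BZLF, and the intervals give the differences that remain possible. Lgr6, at 1.86, 2.16, 2.40 and 2.39, had a log2 fold change of -0.02 (interval -0.28 to 0.24). Lrig1, at 10.5, 13.1, 10.9 and 13.1, had one of -0.02 (interval -0.25 to 0.22). The sign of both depended on the scaling.

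The comparison of IMQ + BZLF with control skin shares its controls with the first, so the values stand side by side without a count of agreement. Lgr5, Sox9 and Foxc1 rose and Cd34 and Nfatc1 fell, so that 5 of 8 genes were called, where 19.7% of all genes were called, 9.65% higher and 10.1% lower. Without overlap were 6 of 8 genes, against 47.5% of all genes, and an adjusted p below 0.05 alone was met by 7 of 8, against 53.0%. The log2 fold change of Cd34 was -1.67 (SE 0.21, adjusted p = 4.2e-04 in limma), of Sox9 1.498 (SE 0.24), of Lgr5 1.36 (SE 0.36) and of Foxc1 1.34 (SE 0.15). Nfatc1 stood at the limit with -1.01 (SE 0.15, adjusted p = 8.6e-04). It was not called without control replicate 2 (-0.99), control replicate 4 (-0.99), IMQ + BZLF replicate 1 (-0.89) or IMQ + BZLF replicate 2 (-0.995), nor with a constant of 1 in the logarithm (-0.84) or median ratio scaling (-0.996).

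Lgr6 had a log2 fold change of -0.91 (SE 0.17, adjusted p = 0.00236) against controls, and Lrig1 one of 0.46 (SE 0.15, adjusted p = 0.0267), both short of the limit. Lgr6 passed it without control replicate 1 (-1.04) and with equal sums (-1.01), but not without control replicate 2 (-0.83). Lhx2 had one of 1.13 (SE 0.57, adjusted p = 0.125), which was not called. Without control replicate 2 the value of Lhx2 was 1.80 (SE 0.16, adjusted p = 3.6e-05), with a range over all alternatives of 3.6e-05 to 0.284 in adjusted p. The count without that library was 4 higher and 1 lower, where 12.7% of all genes were then called higher and 11.8% lower.

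Markers of the growing follicle also differed between the groups, and their values are given as measured. Of all genes tested, 11.4% were called higher in IMQ + NS and 9.65% in IMQ + BZLF against control skin. All 21 hair shaft and inner root sheath genes rose in IMQ + NS against control skin, with a median log2 fold change of 7.02, and in IMQ + BZLF against control skin, with a median of 7.30. Their summed FPKM was 14730 to 19819 in IMQ + NS and 18733 to 27469 in IMQ + BZLF samples. Of 8 hair matrix genes, 6 rose in IMQ + NS skin, led by Foxn1, a factor of hair keratin expression, at 4.82 and Msx2 at 4.53, and their sum was 277 to 383 against 15.3 to 20.4 in the other 3 controls and 159 in control replicate 2. That library therefore lay between the other controls and the lesions in its hair matrix and hair shaft sums, and likewise in Sox9, Foxc1 and Cd34. Its Lgr5 and Lrig1 were within the range of the lesion samples and its Lhx2 above it. By contrast its Lgr6 (4.89) and Nfatc1 (6.91) stayed within the range of the other 3 controls (3.12 to 4.93 and 6.41 to 6.98). Of 14 proliferation genes, 11 rose in IMQ + NS against control skin, with Mki67, the Ki67 antigen, at 2.26. In IMQ + BZLF against control skin 5 rose, namely Mki67 at 2.15, the cyclin gene Ccnb1 at 2.004, the kinetochore gene Cenpf at 1.95, the mitotic kinase gene Aurkb at 1.71 and the ribonucleotide reductase gene Rrm2 at 1.25. Without control replicate 2 there were 13 in each comparison. Their sum was 296 to 337 in IMQ + NS and 253 to 288 in IMQ + BZLF samples, 90.03 to 110 in the other controls and 398 in control replicate 2. The part of growing follicles in the levels of the stem cell genes was not tested.

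**Figure D3:**
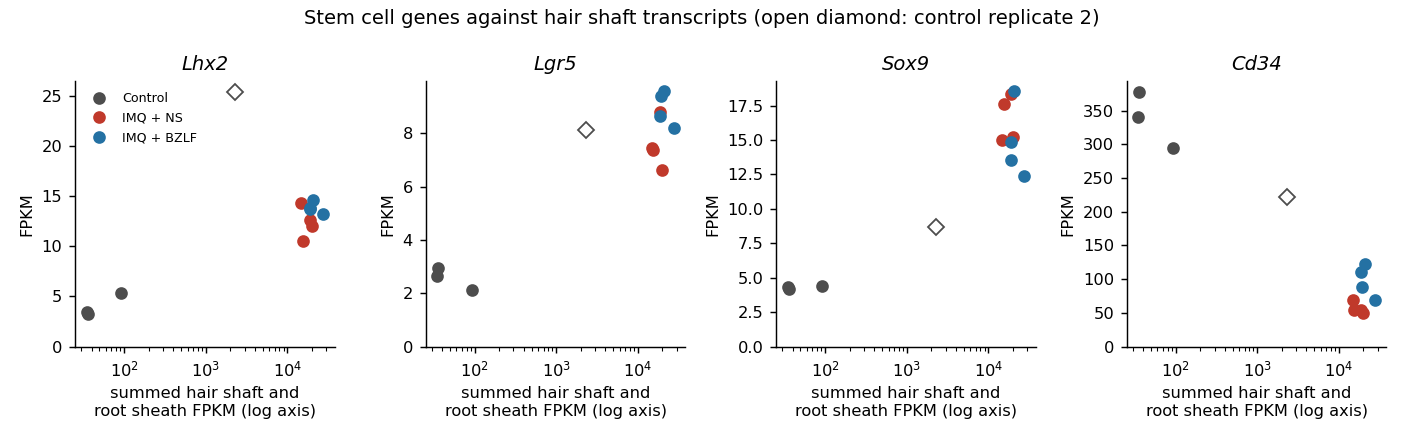
FPKM of Lhx2, Lgr5, Sox9 and Cd34 against the summed FPKM of 21 hair shaft and inner root sheath genes on a log axis, 1 point per sample, coloured by group. Control replicate 2 (open diamond, 2297) lies between the other controls (35.1 to 92.2) and the lesion samples (14730 to 27469), with the highest Lhx2 of all 12 samples.

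Other cell populations of skin were read as well. In IMQ + NS against control skin, 11.4% of all genes tested were called higher and 11.0% lower. In IMQ + BZLF against IMQ + NS skin, 2.20% were called lower. Of 6 basal keratinocyte genes, 5 rose in IMQ + NS against control skin, namely the keratin genes Krt14 at 2.08 and Krt5 at 1.32, the integrin gene Itga3 at 1.63, the transcription factor gene Trp63 at 1.14 and the anchoring fibril gene Col7a1 at 1.04. The sebaceous gland, which the isthmus supplies, had 6 of 11 genes called lower and none called higher. Of those called, the desaturase gene Scd3 was at -3.52 and the wax synthase gene Awat2 at -2.92. Of the 11 genes 2, Elovl3 and Soat1, were above 0 in log2 fold change. Both were higher than in controls without overlap, Elovl3 at 92.7 ± 27.1 against 46.9 ± 4.71 FPKM and Soat1 at 15.9 ± 2.55 against 11.2 ± 1.74. Of the muscle genes 10 of 10 fell, with a median of -2.93, and of 11 adipocyte genes 8 fell, with a median of -1.31. The dermal papilla, the mesenchyme that signals to the hair germ, had Corin higher at 2.64 and Fgf7 and Sox2 lower at -1.30 and -1.43 among 7 genes tested, and 3 higher and 1 lower without control replicate 2. Corin was low and its groups overlapped, at 0.0547 to 3.25 FPKM in control and 2.25 to 2.64 in IMQ + NS skin. Without control replicate 2 Corin was at 3.65. Sox2 was near the floor, at 0.607 ± 0.637 FPKM in control and 0.113 ± 0.0517 in IMQ + NS skin. Without that library Sox2 was at -0.90 and not called. Of 12 leukocyte genes 3 rose, the neutrophil receptor genes Cxcr2 at 4.01 and Csf3r at 2.28 and the integrin gene Itgam at 1.12, and 2 mast cell genes fell, Cpa3 at -1.06 and Cma1 at -1.01. In IMQ + BZLF against IMQ + NS skin 5 leukocyte genes fell, namely Cxcr2 at -3.08, Csf3r at -2.43, Itgam at -1.76, the macrophage gene Adgre1 at -1.36 and the pan-leukocyte gene Ptprc at -1.12. There the basal keratin Krt14 fell by 1.54 on the log2 scale and the dermal papilla gene Crabp1 by 1.28.

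Of 22 other genes known from the hair follicle stem cell compartments 21 were tested, and in IMQ + NS against control skin 4 rose, 1 fell and 16 were not called, where 22.4% of all genes were called. The median log2 fold change was 0.39. The vitamin D receptor gene Vdr rose by 2.40 on the log2 scale (adjusted p = 0.0035), the transcription factor gene Runx1 by 1.56 (adjusted p = 4.8e-04), the upper isthmus marker Plet1 by 1.56 and Tbx1, a T-box factor of bulge cells, by 1.34. The growth factor gene Fgf18, made by resting bulge cells, fell by 1.60 on the log2 scale (adjusted p = 0.0022). Its FPKM was 2.72 ± 0.702 in control and 0.874 ± 0.417 in IMQ + NS skin. Without control replicate 2 the Wnt inhibitor gene Wif1 (1.40) and the Hedgehog target Gli1 (1.79) were called too, giving 6 higher and 1 lower. Krt15, a keratin of bulge and basal cells, was lower without overlap, at 217 ± 28.2 against 387 ± 55.0 FPKM, but short of the limit at -0.83 (adjusted p = 6.8e-04).

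None of these 21 genes was called by limma in IMQ + BZLF against IMQ + NS skin, where 2.52% of all genes were called. Their median was 0.01, with 11 of 21 above 0. Against control skin, where 19.7% of all genes were called, Vdr (2.36), Tbx1 (1.45) and Runx1 (1.19) rose in IMQ + BZLF samples. Fgf18 fell by 1.09 on the log2 scale, and without control replicate 2 the count was 6 higher and 1 lower. Plet1 was at 0.98 there, short of the limit. The keratin gene Krt24 was not tested, being at 0.285 ± 0.131 FPKM in control skin and listed at 0 in the 4 IMQ + NS samples.

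**Figure D4:**
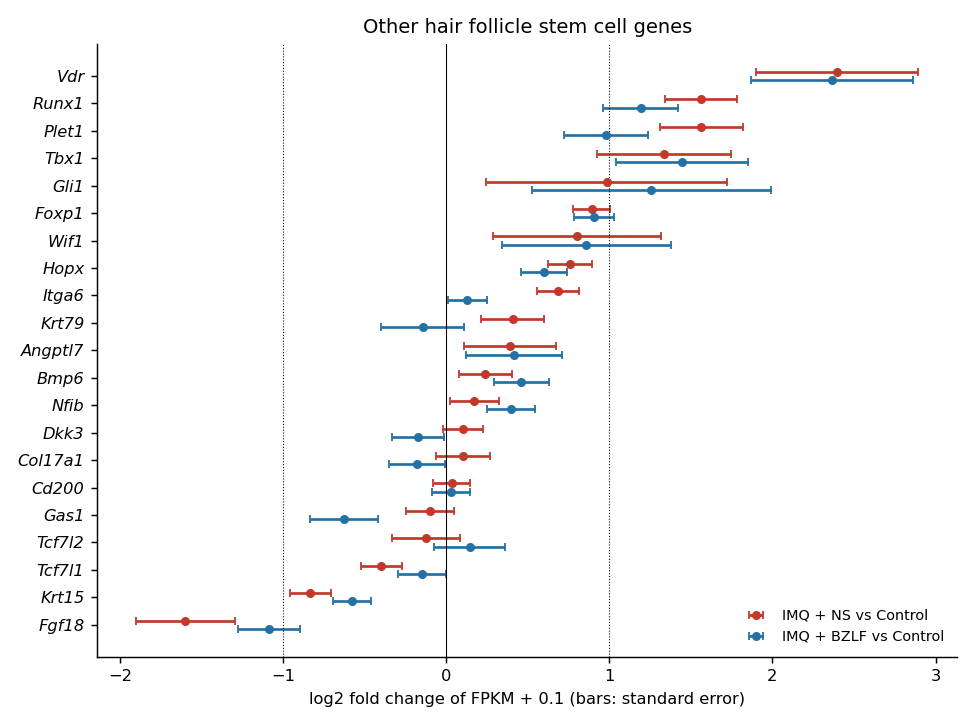
Log2 fold change of FPKM + 0.1 for 21 other hair follicle stem cell genes, IMQ + NS against control in red and IMQ + BZLF against control in blue, with standard errors from limma (n = 4 per group). Dotted lines mark a 2-fold change. Vdr lies highest (2.40 and 2.36) and Fgf18 lowest (-1.60 and -1.09).

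Of 14 genes of the R-spondin and Wnt pathway, 2 rose, 2 fell and 10 were not called in IMQ + NS against control skin, where 11.4% of all genes were called higher and 11.0% lower, and the median was 0.42. The ligand genes Rspo1 and Rspo3 fell by 1.77 and 1.38 on the log2 scale, and Rspo1 was at 14.3 ± 2.02 FPKM in control and 4.13 ± 0.497 in IMQ + NS skin. A further ligand gene, Rspo4, rose by 1.13 on the log2 scale from a low level, with 0.900 ± 0.0587 FPKM in control and 2.09 ± 0.210 FPKM in IMQ + NS skin. Lef1, the transcription factor at the end of the Wnt pathway and also a hair matrix gene, rose by 3.23, with 8.08 FPKM in control replicate 2 as the highest of the controls. Without that library the third receptor Lgr4 (1.06) and Rnf43 (1.08), a ubiquitin ligase that R-spondins hold back, were called too. Of these 14, 0 were called by limma in IMQ + BZLF against IMQ + NS skin, where 2.52% of all genes were called. Their median was 0.13. Against control skin, where 19.7% of all genes were called, IMQ + BZLF samples had Lef1 (3.44) and Rspo4 (1.26) higher. Rspo1 (-1.54) and the Wnt target Sp5 (-1.22) were lower there, and without control replicate 2 the counts were 5 higher and 2 lower. Sp5 was low and its groups overlapped, at 0.386 ± 0.322 FPKM against 0.903 ± 0.326 in controls. The Wnt targets Axin2 (9.14 ± 1.18 against 7.89 ± 0.646) and Nkd1 (13.2 ± 2.08 against 9.20 ± 0.536) had higher means and were not called.

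Of 13 family relatives of the 8 genes, 12 were tested, and 1 was called in IMQ + NS against control skin, beside 22.4% of all genes. This was Foxc2, the closest relative of Foxc1, at -1.30 (adjusted p = 0.0023), so that the pair went in opposite directions. Its level was low, at 1.19 ± 0.265 FPKM in control and 0.431 ± 0.172 in IMQ + NS skin. Foxc2 was called lower in IMQ + BZLF against control skin as well, at -1.38, together with Podxl, a sialomucin gene related to Cd34, at -1.22. Of all genes, 19.7% were called in that comparison. Of these 12, 0 were called by limma in IMQ + BZLF against IMQ + NS skin, where 2.52% of all genes were called. The median was -0.36 in IMQ + NS and -0.49 in IMQ + BZLF against control skin. Without control replicate 2, Lgr4 was called higher in both, at 1.06 and 1.05, so that the counts were 1 higher and 1 lower in IMQ + NS and 1 higher and 2 lower in IMQ + BZLF samples.

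The genes whose pattern over the 12 samples was nearest to each stem cell gene were found by the root mean square (RMS) difference of log2 values centred on the gene mean, among the 12657 genes whose FPKM averaged 1 or more. They were chosen on these same samples, so their fold changes and calls largely follow from the choice and are no separate result. For Cd34 the nearest were Pdgfrl (0.128), Sparc (0.141), which encodes a collagen-binding matrix protein, and Scara5 (0.148). By group mean, Sparc had an FPKM of 7335 in control skin, 1312 after IMQ + NS and 2312 after IMQ + BZLF, and log2 fold changes of -2.49 in IMQ + NS and -1.69 in IMQ + BZLF against control skin. For Sox9 the nearest were Eva1a (0.162), Itga3 (0.163) and Limk2 (0.167), a kinase gene of the actin cytoskeleton. Itga3 is also on the basal keratinocyte list above.

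For Lhx2 the nearest were Ptch1 (0.147), the Hedgehog receptor and target, Stmn1 (0.181) and Rad51ap1 (0.200), a DNA repair gene. Ptch1 had a log2 fold change of 0.79 (SE 0.60) in IMQ + NS against control skin and, like Lhx2, was not called. For Lgr5 they were Igsf9 (0.136), Pi15 (0.149) and Sinhcaf (0.157), and all 3 were called higher in both lesion groups against controls. For Lgr6 they were Sh3pxd2b (0.156), Dnajc25 (0.162) and Idh2 (0.168), a mitochondrial dehydrogenase gene. For Nfatc1 they were Rhbdl3 (0.116), Arpin (0.124) and Ifitm2 (0.131), for Foxc1 Fhdc1 (0.0726), Nfil3 (0.0876) and Ptprk (0.0895), and for Lrig1 Tanc2 (0.0827), Plxna3 (0.0882) and Chd6 (0.0915). A gene that varies little, such as Lrig1 with an RMS of 0.281 about its own mean against 1.05 for Cd34, can have small differences by that alone, so the values are not to be compared between the 8 genes.

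**Figure D5:**
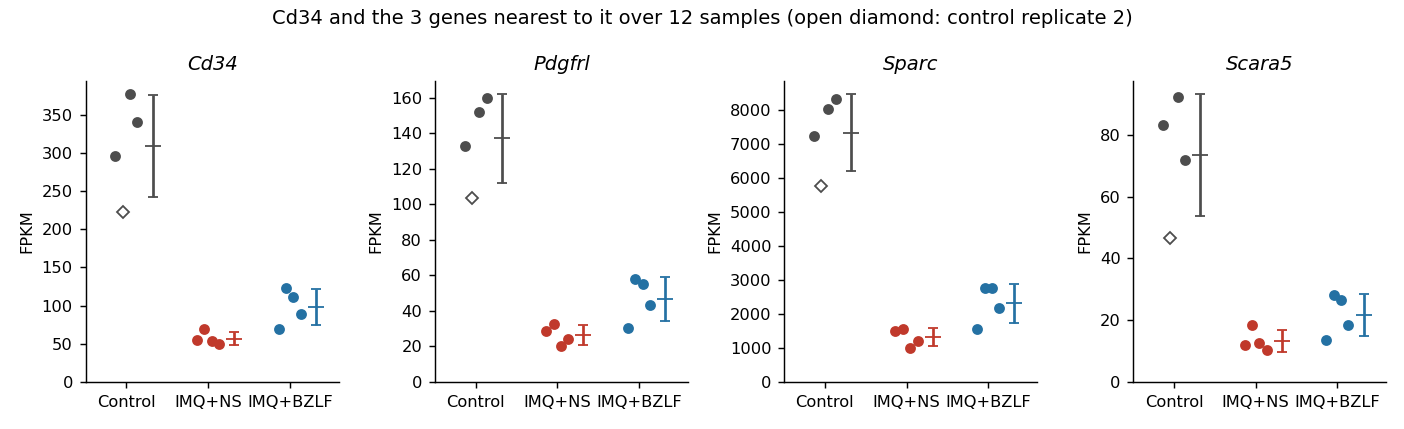
FPKM of Cd34 and of the 3 genes nearest to it over 12 samples, by group, with a linear axis from 0. Points are samples, bars are the mean and SD of 4, and the open diamond is control replicate 2, the lowest control for each of the 4 genes. The 3 genes were chosen for their likeness to Cd34 in these samples.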

How the data were processed

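Gene expression in whole back skin was measured by RNA-seq in 3 groups of 4 samples. The authors deposited FPKM values, 1 per gene and sample, and no counts were used here. The study's methods describe mirVana extraction, a TruSeq Stranded library with ribosomal RNA removal, Bowtie2 alignment to transcripts and eXpress, whereas the labels name TRIzol and a VAHTS kit and the submitters' processing notes name fastp, HISAT2, HTSeq, R 3.2.0 and mm10. Which of these made the values is not settled by the sources used here. The kits differ in how RNA was selected, and FPKM depends on the transcript lengths used. Depth cannot be read from FPKM, so no counting intervals are given.

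The 15288 genes whose FPKM averaged 0.1 or more over all samples were tested on log2(FPKM + 0.1) with limma 3.58.1 in R 4.3.3 (moderated variances with a trend), separately for each pair of groups, with Benjamini-Hochberg adjustment over all genes tested. The constant understates fold changes of genes with low FPKM. Single genes were also compared by two-sided exact permutation tests of 4 against 4 samples. Tables and figures were made with Python 3.11.15, pandas 2.3.3 and matplotlib 3.10.9, and the method was tested on simulated data. The 8 genes and all lists were chosen with earlier results of these data known. Where called genes of a list are described for a comparison, all were named when 5 or fewer were called, and otherwise at most some of the 3 highest and 3 lowest. The counts of surrounding skin cell lists in IMQ + BZLF against control skin are not described. Other genes named are Krt15, Krt24, Wif1, Gli1, Lgr4, Rnf43, Elovl3, Soat1, Axin2, Nkd1 and, by nearness, 3 genes for each of the 8. All but those found by nearness were chosen after their values were seen. Alternatives covered the constant, the filter, scaling, the fit, the threshold, the replicate number as a block and each sample left out.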

Additional observations from a re-analysis of the deposited data

Results flagged for a closer look

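In groups of 4 samples, the gap between the highest or lowest sample and its neighbour was compared with the whole range (Dixon's test). Over 27 groups 5 were marked, and chance marks about 1 group in 20. Lgr5 in control replicate 2, at 8.11 FPKM, was marked with a gap of 0.865 of the range. Sox9 in the same library, at 8.66 FPKM, was marked with 0.967, Lhx2, at 25.3 FPKM, with 0.903, and the ratio of Lgr5 to Lgr6, at 1.66, with 0.839. Thus 4 of the 5 came from control replicate 2, the library whose hair shaft and inner root sheath genes summed to 2297 FPKM. The ratio is made from Lgr5, so its mark is not separate from that of Lgr5. The 27 groups also come from the same 12 samples, so the rate of 1 in 20 is only a rough guide. Foxc1 in IMQ + BZLF replicate 1, at 18.5 FPKM, was marked with 0.865. In that sample the same hair genes summed to 27469 FPKM, the highest of the 12 samples, and the fibroblast genes to 4612 FPKM, the lowest of the IMQ + BZLF group.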

How the results depend on the processing

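Cd34, Sox9 and, except after quantile normalization in IMQ + NS against control skin, Foxc1 were called under each of 21 alternatives in both comparisons with controls. Calls depended on single libraries, as given above, for Lgr5 in IMQ + NS, for Nfatc1 in IMQ + BZLF and for Lgr6 and Lhx2 in both against control skin. Depth could not be read from FPKM, and the cause of each shift below was not tested.

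In IMQ + NS against control skin, 1678 genes were called lower and 1740 higher. A constant of 1 left 1023 lower, and with no limit on the fold there were 4427 higher and 4142 lower. Of the 8 genes, 2 were called lower with equal sums, 1 higher and 2 lower after quantile normalization, and 3 lower with no limit on the fold, while leaving out 1 sample gave 1 to 2 lower and 2 to 4 higher. Equal sums and quantile normalization each moved the median log2 fold change of all genes from 0.05 to -0.07 here.

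In IMQ + BZLF against IMQ + NS skin, 49 genes were called higher and 336 lower. A constant of 1 gave 17 and 188, an unadjusted p 88 higher, and no limit on the fold 195 and 791, with 1 of the 8 genes (Cd34) higher. Leaving out 1 sample gave 19 (without IMQ + BZLF replicate 2) to 78 (without IMQ + BZLF replicate 1) higher, and 25 and 29 without IMQ + NS replicates 3 and 4. Lgr6 and Lrig1 turned positive with median ratio scaling (0.0322 and 0.0408), equal sums (0.00721 and 0.0148) and quantile normalization (0.0344 and 0.0373), and ran from -0.0915 to 0.0536 and from -0.0643 to 0.0590 with 1 sample left out.

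In IMQ + BZLF against control skin, 1475 genes were called higher and 1542 lower. A constant of 1 gave 979 and 865, and no limit on the fold 3640 and 4458. Of the 8 genes, 1 was lower with a constant of 1 and with median ratio scaling, and 1 to 3 with 1 sample left out.

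Replicate numbers are not said to pair samples, and same-numbered samples correlated by -0.15 to 0.26 in their deviations. With the replicate number as a block, 1730 genes were higher and 1684 lower in IMQ + NS against control skin, 47 and 335 in IMQ + BZLF against IMQ + NS skin, and 1457 and 1527 in IMQ + BZLF against control skin, with no gene of the 8 changing its call.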
